A study of Mus musculus with 28 samples.

Results

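H3K4me1 regions without acetylation are stretches of chromatin, away from gene starts, that carry monomethylated lysine 4 of histone H3 in mature IDG-SW3 cultures but no called region of any of the 3 acetyl marks profiled. They were selected on called regions, chosen by these conditions from the H3K4me1 list of day 35: a width of at least 1 kb, a place on chromosomes 1 to 19, more than 2 kb to any protein-coding transcription start site (TSS), and no overlap with a called region of H3K27Ac, H3K9Ac or H4K5Ac on either day. H4K5Ac is the sample labels' name for the last of these, and the extraction protocol instead lists an H3K5Ac antibody, so what that mark measured is uncertain to this extent. Of 100123 regions in that list, 97593 were autosomal, 72849 of those were at least 1 kb wide, and 58815 of those were distal to start sites. The acetyl condition left 4905 regions, 8.34% of the distal ones and 4.90% of the whole list. They are called unacetylated regions here, which means that no acetyl region was called on them, not that acetylation was measured as 0. The number rests on the authors' calls, since the higher-scoring 50% of each acetyl list left 22102 regions without an overlap.

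IDG-SW3 cells come from mouse bone. They proliferate with osteoblast character at 33 °C in medium that holds interferon gamma, and become osteocyte-like at 37 °C in osteogenic medium once the interferon is withdrawn. The line holds a reporter, GFP under the Dmp1 promoter. Chromatin immunoprecipitation with sequencing covered 9 histone marks, each with 1 library at day 35 and 1 library at day 3. VDR, the receptor of active vitamin D, and RXR, the retinoid X receptor, were profiled at day 35 after 3 h of 100 nM 1,25(OH)2D3 (here 1,25D3) or of vehicle, with 2 replicates per arm. The deposited files are lists of called regions with a peak score. Sequencing depth is unknown here, and the lists differ in length: H3K4me1 had 100123 regions at day 35 and 91299 at day 3, and H3K4me2 had 66645 at day 35 and 45596 at day 3.

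H3K4me1 is laid down by the MLL3 and MLL4 methyltransferases and marks enhancers in many states of activity. Acetylation of H3K27 by the coactivators p300 and CBP, with acetylation of other histone tails, accompanies enhancers in use, and regions with H3K4me1 alone are described in the literature as primed or latent enhancers. VDR binds DNA mostly as a dimer with RXR, at a direct repeat of hexamers with a 3-base spacer, called DR3. Osteoblasts depend on RUNX2, a Runt-domain factor, and osteocytes express Dmp1, Mepe and Sost.

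Bone genes were marked in the cultures at both days. H3K27Ac was called within 1 kb of the start of 15 of 15 osteoblast genes and 11 of 13 autosomal osteocyte genes, with the same counts at day 35 and day 3, and with Sost and Fgf23 the osteocyte genes that lacked it at day 35. H3K4me3 was called at 7 of the 13 osteocyte starts at day 35 and at 8 at day 3, so these counts do not set the mature cultures apart from day 3. Of the markers of other cell types, 9 of 11 adipocyte, 6 of 8 chondrocyte, 6 of 8 haematopoietic and osteoclast, 3 of 9 myogenic, 2 of 7 endothelial and 2 of 12 neural genes had H3K27Ac at day 35. In bulk cultures a mark present in fewer cells and a mark that is weaker in each cell cannot be told apart.

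Sequences are printed first for the unacetylated regions that held a VDR peak with 1,25D3. The labels state no 1,25D3 or vehicle treatment for the histone libraries, so acetylation at these sites after hormone is unknown here. The 4 with the best mean score rank in both 1,25D3 libraries are given as the central 150 bases of the VDR site, plus strand, mm9. Capitals mark the hexamers of a DR3 element. The element was searched on both strands as a direct repeat of the degenerate VDR hexamer, of which AGGTCA is a well-known form, with a spacer of 3 bases and at most 1 mismatch over the pair.
VDR site upstream of Ephb6, chr6:41532323-41532472: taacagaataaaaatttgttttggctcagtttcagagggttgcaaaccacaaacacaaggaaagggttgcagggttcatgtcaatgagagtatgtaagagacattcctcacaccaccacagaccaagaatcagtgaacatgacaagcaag
VDR site downstream of the start of Gm5449, chr13:53693562-53693711: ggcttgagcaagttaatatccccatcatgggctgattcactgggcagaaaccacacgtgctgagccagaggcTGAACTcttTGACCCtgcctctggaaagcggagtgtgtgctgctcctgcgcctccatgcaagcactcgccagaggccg
VDR site in an intron of Snap91, chr9:86755380-86755529: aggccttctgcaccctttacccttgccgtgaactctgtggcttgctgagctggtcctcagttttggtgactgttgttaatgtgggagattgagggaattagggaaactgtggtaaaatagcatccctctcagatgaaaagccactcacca
VDR site in an intron of Gdpd5, nearest to the start of Klhl35, chr7:106590075-106590224: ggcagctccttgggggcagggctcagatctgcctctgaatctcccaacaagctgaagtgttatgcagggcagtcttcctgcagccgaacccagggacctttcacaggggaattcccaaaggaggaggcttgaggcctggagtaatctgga

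Only the Gm5449 site of these 4 held an element, and it matched without a mismatch. The other exact matches among the VDR sites of unacetylated regions lay at 5 sites of lower rank. They were chosen for print after their match was known, as 60 bases around the element, plus strand, mm9.
VDR site near Pnliprp1, chr19:58783193-58783252: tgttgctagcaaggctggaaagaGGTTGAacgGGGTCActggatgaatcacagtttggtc
VDR site in an intron of Agap1, chr1:91523430-91523489: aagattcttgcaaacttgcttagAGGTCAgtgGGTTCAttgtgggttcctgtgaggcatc
VDR site near Siglec5, chr7:50617847-50617906: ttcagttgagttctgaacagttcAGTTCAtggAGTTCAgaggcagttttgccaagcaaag
VDR site upstream of Rgs4, chr1:171734692-171734751: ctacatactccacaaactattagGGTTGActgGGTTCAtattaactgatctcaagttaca
VDR site upstream of Sox9, chr11:112598433-112598492: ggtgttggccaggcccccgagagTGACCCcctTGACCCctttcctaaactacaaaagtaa

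RXR sites without a VDR site are shown next, as the 3 of best rank, 150 bases each on the plus strand. Capitals mark the nuclear receptor hexamer AGGTCA on either strand. Of the 3, the Zfp648 site also held a DR3 element with 1 mismatch by the search used for the VDR sites, not marked as such.
RXR site upstream of Gm10029, chr13:6897123-6897272: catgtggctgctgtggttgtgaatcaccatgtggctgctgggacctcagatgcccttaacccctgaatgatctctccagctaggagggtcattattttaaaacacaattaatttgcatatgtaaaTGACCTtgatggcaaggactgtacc
RXR site upstream of Zfp648, chr1:156003642-156003791: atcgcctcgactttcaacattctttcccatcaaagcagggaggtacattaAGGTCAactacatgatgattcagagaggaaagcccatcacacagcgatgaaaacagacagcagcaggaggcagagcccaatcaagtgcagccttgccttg
RXR site upstream of Npas4, chr19:4992982-4993131: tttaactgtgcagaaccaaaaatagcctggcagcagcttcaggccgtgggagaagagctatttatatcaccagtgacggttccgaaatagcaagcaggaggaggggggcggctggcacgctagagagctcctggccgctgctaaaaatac

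The centres of the highest-scoring and of the widest unacetylated region, 200 bases each, show what strong H3K4me1 without an acetyl call looked like in sequence. Capitals mark the RUNX hexamer TGTGGT on either strand, the only match among the AP-1, RUNX and TEAD motifs searched there.
Highest-scoring region, intron of Arid1b, chr17:5220164-5220363: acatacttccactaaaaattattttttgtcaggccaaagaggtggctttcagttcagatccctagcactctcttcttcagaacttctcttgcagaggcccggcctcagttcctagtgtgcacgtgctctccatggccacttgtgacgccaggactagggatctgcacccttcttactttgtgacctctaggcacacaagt
Widest region, upstream of Ppp2r2a, chr14:67731432-67731631: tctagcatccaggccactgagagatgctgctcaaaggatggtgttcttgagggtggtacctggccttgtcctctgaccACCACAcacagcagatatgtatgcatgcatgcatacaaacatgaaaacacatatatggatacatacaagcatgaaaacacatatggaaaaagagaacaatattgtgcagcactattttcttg

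Unacetylated regions were the narrow, low-scoring end of the H3K4me1 list. Their median width was 1322 bp (interquartile range 1129 to 1793, widest 9113 bp), against 1684 bp for regions acetylated at day 35 alone, 1458 bp for those acetylated at day 3 alone and 2980.5 bp for those acetylated at both days. Their median score, the authors' own peak score of unstated scale, was 47.9 (interquartile range 36.6 to 64.9, highest 355), against 77.9, 53.8 and 182 in the same classes. Those classes held 9704, 1666 and 42540 of the distal regions. Over the score quartiles of the distal regions, from lowest to highest, 25.6%, 7.02%, 0.768% and 0.0340% were unacetylated, which is 3754, 1033, 113 and 5 regions. Over widths of 1 to 1.5 kb, 1.5 to 2 kb, 2 to 3 kb and 3 kb or more the shares were 20.9%, 8.39%, 5.51% and 1.69%.

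The thresholds cut through a continuum. The narrowest region kept was 1000 bp and the widest left out by width was 999 bp. Within 100 bp of the limit 1034 were kept above it and 1282 left out below it, and 12179 in all fell under 1 kb. At the start-site limit the closest region kept lay 2004 bp from a TSS and the farthest left out 1922 bp, with 439 unacetylated regions left out there. At the acetyl limit the closest region kept lay 6 bp from an acetyl region, and the least acetyl-covered region left out had 12 bp covered. Only 12 regions kept had an acetyl region within 100 bp, and 11 left out had under 100 bp covered.

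The distance to acetylated chromatin varied widely. The nearest acetyl region of any of the 6 lists lay a median of 8.07 kb away (interquartile range 4.05 to 18.4 kb, farthest 1467 kb). An acetyl region lay within 1 kb of 117 (2.39%), within 5 kb of 1607 (32.8%), within 10 kb of 2796 (57.0%) and within 50 kb of 4543 (92.6%). Taken by mark, the median gap was 8.85 kb to H4K5Ac, 11.0 kb to H3K27Ac and 15.8 kb to H3K9Ac. The nearest other H3K4me1 region was itself acetylated for 3128 (63.8%), against 84.1% of all distal regions and 76.7% of those acetylated at day 35 alone, and 1825 (37.2%) had another unacetylated region within 50 kb.

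Their place in the genome was like that of the distal regions as a whole. The median distance to a TSS was 39.2 kb, and 39.3 kb for all distal regions. Introns held 46.4%, intergenic sequence 51.9% and exons 1.69%, against 45.3%, 52.3% and 2.41% of all distal regions. By chromosome the unacetylated share ran from 5.85% on chromosome 16 to 11.0% on chromosome 14. Base composition was also close, with a median GC content of 43.7% in the central 300 bp, against 44.3% for all, and a median CpG observed-to-expected ratio of 0.180, against 0.186.

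H3K4me1 had already been called at day 3 on 2731 of the 4905 unacetylated regions, 55.7% (95% Wilson interval 54.3 to 57.1%), against 88.1% of all distal regions. The other 2174 had H3K4me1 in the day-35 list and none at day 3. The share was 56.4% where acetylation was called at day 35 alone, 97.9% where it was called at day 3 alone and 98.7% where it was called on both days. With scores pooled, unacetylated regions and those acetylated at day 35 alone were thus within 1 percentage point of each other. Both lay below the classes acetylated at day 3. Within score quartiles the share was higher on unacetylated regions than on those acetylated at day 35 alone, as given below. With 1 library per mark and day there is no replicate check on these shares, and the intervals cover counting error only. Where H3K4me1 was present at day 3 it covered a median of 76.5% of the region (interquartile range 47.7 to 95.7%).

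H3K4me2, which is found at enhancers and promoters with more methylation on the same lysine, was the commonest other mark on unacetylated regions at day 35 when 1 shared base counted. It lay on 1116, 22.8% (21.6 to 23.9%), against 61.7% of all distal regions. The classes acetylated at day 35 alone, at day 3 alone and at both days had 37.8%, 31.9% and 72.8%. At day 3 it lay on 157 unacetylated regions, 3.20%, against 39.2% of all. By region, 979 had H3K4me2 at day 35 alone, 20 at day 3 alone, 137 at both days and 3769 at neither. H4K20me1 was commoner than H3K4me2 at day 35 in unacetylated regions at least 2 kb wide (27.1% against 20.3%), in those of any width (13.4% against 13.1%), where at least 50% of the region had to be covered (16.7% against 10.6%) and with the higher-scoring 50% of each mark's list (14.3% against 1.63%). The day-3 H3K4me2 list was the shorter one, and its part in this difference was not tested.

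**Figure D1:**
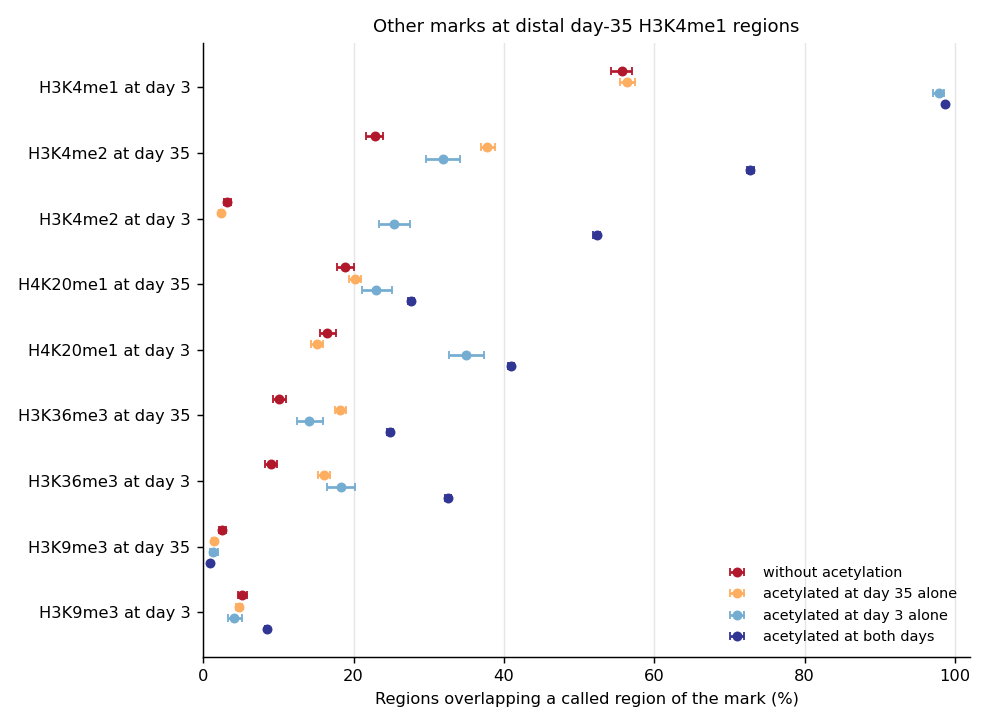
Share of distal day-35 H3K4me1 regions (%, x axis) that overlap a called region of each mark and day (y axis), for regions without acetylation (4905), acetylated at day 35 alone (9704), at day 3 alone (1666) and at both days (42540); points are shares from 1 library per mark and day and bars are 95% Wilson intervals for counting error. Regions without acetylation lie at 55.7% for day-3 H3K4me1 and 22.8% for day-35 H3K4me2, and above the other classes for day-35 H3K9me3 at 2.53%.

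H3K4me3, the promoter form of the mark, was nearly absent, on 3 unacetylated regions at day 35 (0.0612%) and on 1 at day 3 (0.0204%). All distal regions had 1.03% and 1.96%. The marks of transcribed gene bodies had lower shares than over all distal regions when widths were pooled. H3K36me3, deposited behind elongating RNA polymerase II, lay on 497 at day 35 (10.1%, against 22.2% of all) and on 442 at day 3 (9.01%, against 27.5%). H4K20me1, another mark of transcribed bodies, lay on 926 at day 35 (18.9%, against 25.6%) and on 809 at day 3 (16.5%, against 34.5%).

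H3K9me3, the mark of constitutive heterochromatin, was the one mark more frequent on unacetylated regions than on the other classes at day 35 when widths were pooled. With 1 shared base counted it lay on 124, 2.53% (2.12 to 3.01%), against 1.16% of all distal regions and 0.952% of those acetylated at both days. On unacetylated regions the share was 0.938% where H3K9me3 had to cover the centre and 0.775% where it had to cover at least 50%. No values of the other classes are given here for these 2 settings. At day 3 it lay on 254 unacetylated regions, 5.18%, against 7.48% of all, 4.75% of those acetylated at day 35 alone and 4.14% at day 3 alone. Of the 254, 81 also had it at day 35, 31.9% (26.5 to 37.9%), against 11.6% of all distal regions with day-3 H3K9me3 and 9.16% of those acetylated at both days. The share was 18.2% (15.0 to 22.0%) where acetylation was called at day 35 alone. Where it was called at day 3 alone the share was 21.7% (13.6 to 32.8%), an interval that overlaps that of unacetylated regions.

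Because unacetylated regions were narrow, and a wider region has more bases that can meet a mark, the shares were also read within width classes. In regions of 1 to 1.5 kb, day-3 H3K4me1 lay on 52.8% of unacetylated regions (51.1 to 54.6%), 49.5% of those acetylated at day 35 alone, 97.4% at day 3 alone and 96.6% at both days. Day-35 H3K4me2 lay on 22.7%, 28.4%, 33.7% and 51.6% in the same order. In regions of 3 kb or more the day-35 H3K4me2 shares were 22.9%, 49.5%, 25.5% and 82.8%. The H3K4me2 share was between 18.6% and 26.1% over the width classes of unacetylated regions, while it was higher in each wider class of regions acetylated at both days. Day-35 H3K9me3 in the narrowest class lay on 2.51% of unacetylated regions and on 0.705% of those acetylated at both days. At 1.5 to 2 kb it lay on 1.61% of unacetylated regions and on 1.61% of those acetylated at day 3 alone.

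The pooled order did not hold in every width class for H3K9me3 at day 3 and H4K20me1. Day-3 H3K9me3 at 1 to 1.5 kb lay on 4.60% of unacetylated regions, against 3.05%, 3.87% and 4.03% of regions acetylated at day 35 alone, at day 3 alone and at both days. At 1.5 to 2 kb its shares in the same order were 4.22%, against 4.53%, 2.89% and 4.91%, at 2 to 3 kb 7.84%, against 4.62%, 6.15% and 5.30%, and at 3 kb or more 7.73%, against 8.58%, 4.63% and 12.3%. Day-35 H4K20me1 at 1 to 1.5 kb lay on 15.0% of unacetylated regions, against 16.4%, 15.7% and 15.5%, and at 1.5 to 2 kb on 23.6%, against 20.4%, 27.7% and 20.5%. Day-3 H4K20me1 at 1 to 1.5 kb lay on 12.6%, against 12.5%, 28.1% and 20.3%. H3K36me3 at day 35 was lower on unacetylated regions than on the other classes in each width class, from 9.13%, against 18.6%, 12.1% and 18.3%, at 1 to 1.5 kb to 15.0%, against 17.9%, 21.3% and 29.4%, at 3 kb or more.

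H3K4me2 on unacetylated regions varied more over score than over width. In the lowest score quartile, which holds 3754 of the 4905, day-35 H3K4me2 lay on 18.5% of unacetylated regions (17.3 to 19.8%), against 20.5% of those acetylated at day 35 alone (19.2 to 21.7%) and 39.0% at both days. In the next quartile it lay on 34.8%, against 41.1% and 56.3%, and in the one above on 50.4%, against 61.3% and 76.7%. The share on unacetylated regions was thus higher in each of these quartiles than in the one below, and in the lowest quartile the intervals of unacetylated regions and regions acetylated at day 35 alone overlapped, although the pooled shares were 22.8% and 37.8%. In that quartile day-3 H3K4me1 lay on 50.7% of unacetylated regions (49.1 to 52.3%) and 43.0% of those acetylated at day 35 alone (41.4 to 44.5%). In the next quartile it lay on 70.7% (67.8 to 73.4%) and 60.4% (58.8 to 62.0%). In the one above it lay on 83.2% (75.2 to 89.0%) and 73.3% (71.2 to 75.2%). In the highest quartile it lay on all 5 unacetylated regions and on 81.2%, with overlapping intervals.

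**Figure D2:**
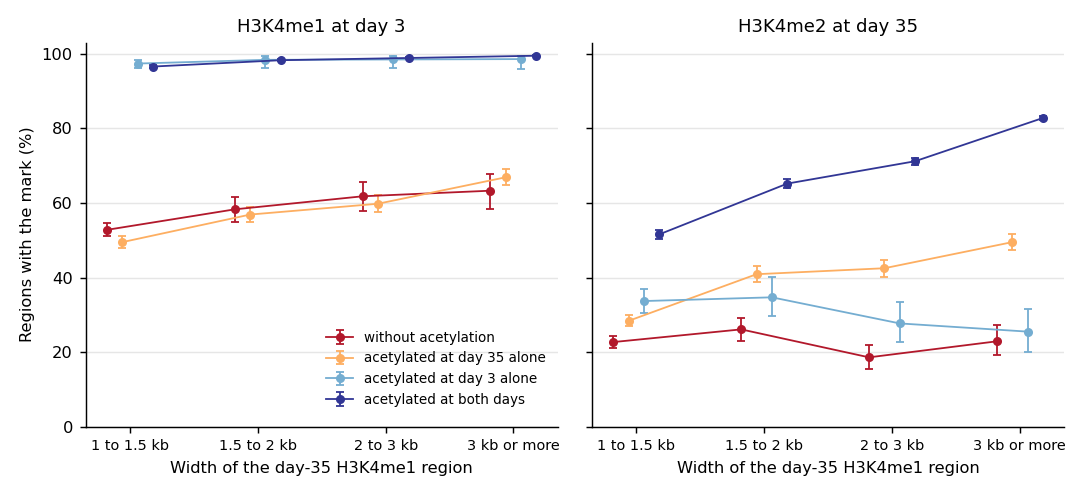
Share of distal day-35 H3K4me1 regions (%) with H3K4me1 at day 3 (left) and H3K4me2 at day 35 (right) against the width of the region, for the 4 acetylation classes; points are shares from 1 library and bars are 95% Wilson intervals. The gap between regions without acetylation and regions acetylated at both days is present in each width class, from 22.7% against 51.6% for H3K4me2 at 1 to 1.5 kb to 22.9% against 82.8% at 3 kb or more.

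The 2731 regions that had H3K4me1 at day 3 and the 2174 that did not differed in their company. H3K4me2 at day 35 lay on 27.5% of those with H3K4me1 at day 3 and on 16.7% of those without, and at day 3 on 5.57% and 0.230%. H4K20me1 lay on 21.8% and 15.2% at day 35, and on 22.5% and 8.97% at day 3. H3K9me3 at day 3 lay on 6.66% and 3.31%. Regions with H3K4me1 at day 3 were also closer to a TSS, with a median of 33.8 kb against 47.7 kb, and to an acetyl region, with 7.24 kb against 9.14 kb. Their median score was 52.0, against 44.1. In all, 1979 (40.3%) had H3K4me1 at day 3 without H3K4me2 at day 35, 752 (15.3%) had both, 364 (7.42%) had H3K4me2 at day 35 alone and 1810 (36.9%) had neither. Neither day-3 H3K4me1, nor a region of the other methyl marks at either day, nor a factor peak lay on 1302 (26.5%), against 5.63% of all distal regions, 18.8% of those acetylated at day 35 alone and 0.390% of those acetylated at both days.

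The nearest start sites were less often marked than those of other distal regions. H3K4me3 at day 35 was called within 1 kb of the nearest start for 1656 unacetylated regions, 33.8% (32.5 to 35.1%), against 44.6% of all distal regions. H3K27Ac was called there for 54.8% at day 35 and 55.9% at day 3, against 68.4% and 68.6% of all.

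VDR peaks in unacetylated regions were few and were seen with hormone alone. With 1,25D3, 24 and 22 unacetylated regions held a VDR peak in replicates 1 and 2, and with vehicle 0 and 0. As shares these are 0.489% and 0.449% with 1,25D3, against 1.42% and 1.13% of all distal regions. With vehicle the count of 0 allows up to 0.0612%, taking 3 counts as the limit, and all distal regions had 0.0340% and 0.0442%. Against that limit in each library the 1,25D3 counts were at least 7.33-fold higher in replicate 2, and higher still in replicate 1. The arms did not overlap, and the difference in mean log2(count + 1) was 4.58, with an exact two-sided permutation p of 0.333 (n = 2 each), the smallest p this design can give. With each VDR list limited by score to the length of the shortest, a vehicle list of 291 peaks, the counts were 1 and 1 with 1,25D3 and 0 and 0 with vehicle, a difference of 1.00.

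RXR peaks were present in both arms. With 1,25D3, 98 and 48 unacetylated regions held an RXR peak in replicates 1 and 2, and with vehicle 61 and 16. The arms overlapped, since replicate 2 with 1,25D3 lay below replicate 1 with vehicle. The difference in mean log2(count + 1) was 1.10 (exact two-sided permutation p = 0.667, n = 2 each), and within replicates the ratio of 1,25D3 to vehicle was 1.60 and 2.88 on the count + 1 scale. Without replicate 2 the difference was 0.68, and with lists of equal length it was 0.40. As shares, 2.00% and 0.979% held an RXR peak with 1,25D3 and 1.24% and 0.326% with vehicle, against 10.7%, 8.27%, 7.56% and 4.72% of all distal regions.

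**Figure D3:**
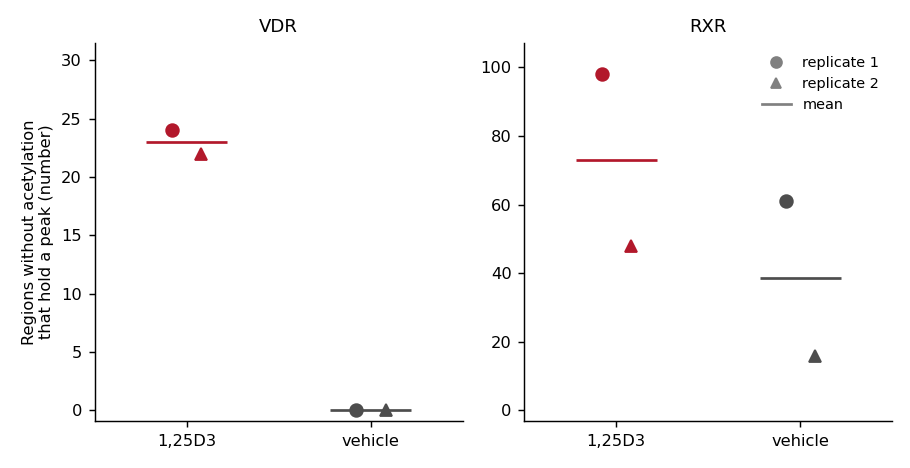
Number of H3K4me1 regions without acetylation (y axis, of 4905) that hold a VDR peak (left) or an RXR peak (right) at day 35 after 1,25D3 or vehicle; each point is 1 library and the bar is the mean of 2. VDR counts are 24 and 22 with 1,25D3 and 0 and 0 with vehicle, and RXR counts are 98 and 48 against 61 and 16.

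For both factors the shares of unacetylated regions and regions acetylated at both days lay closer in narrow regions than in wide ones. In regions of 1 to 1.5 kb, VDR peaks with 1,25D3 lay on 0.418% and 0.386% of unacetylated regions in replicates 1 and 2, against 0.359% and 0.345% of regions acetylated at both days, with overlapping Wilson intervals. In regions of 3 kb or more the shares were 0.748% and 0.499%, from 3 and 2 regions, against 2.79% and 2.16%. For RXR with 1,25D3 the shares at 1 to 1.5 kb were 1.96% and 0.996% against 2.69% and 1.61%, also with overlapping Wilson intervals. At 3 kb or more the RXR shares were 2.24% and 0.998% against 21.2% and 17.1%.

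Sites called in both 1,25D3 replicates were used to name genes. VDR had such a site in 22 unacetylated regions, 0.449% (0.296 to 0.678%), against 1.01% of all distal regions, 0.423% of those acetylated at day 35 alone and 1.25% of those acetylated at both days. They made up 1.81% of the 1218 VDR sites. RXR had one in 41, 0.836%, against 7.49% of all, or 0.604% of the 6783 RXR sites. Both factors had a site in 15, VDR alone in 7 and RXR alone in 26. No unacetylated region held a vehicle VDR peak, so none of the 22 VDR regions could. A vehicle RXR peak lay in 5 of the 22, while 15 of the 41 RXR regions held no vehicle RXR peak. No share over all sites is given here for these vehicle counts, so whether they differ from those of other sites is unknown here. H3K4me1 at day 3 lay on 13 of 22 VDR and 33 of 41 RXR regions, and H3K4me2 at day 35 on 5 and 19. Over all unacetylated regions the shares of these marks were 55.7% and 22.8%, and over all distal regions 88.1% and 61.7%.

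The VDR site of best rank lay at chr6:41532240-41532556, nearest to the start of Ephb6, a kinase-inactive ephrin receptor. It scored 26.2 and 27.6 in the 1,25D3 replicates, and its region held RXR with 1,25D3, no RXR peak with vehicle and no H3K4me2. It lay 54.0 kb from the start of Trpv6, the epithelial calcium channel whose gene is induced by vitamin D in intestine, and Trpv6 was the only listed vitamin D target within 50 kb of a VDR site of this kind, counted from the gene body. Its sequence, printed above, holds no DR3 element under the search used. The next sites by rank lay nearest to Gm5449, to Snap91, a clathrin assembly protein of nerve endings, and to Klhl35. After them came Tram1, Wscd2, Trib2, a pseudokinase of the Tribbles family, Pnliprp1, a pancreatic lipase relative, Agap1, Tmem100 and Cbx2, a Polycomb protein. The lowest-ranked of the 22 lay 45.1 kb upstream of Sox9, the transcription factor of cartilage, at chr11:112598291, with a replicate 2 score of 7.1 and an exact element. Its nearest acetyl region was 3.05 kb away, and it held neither RXR nor H3K4me1 at day 3.

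RXR sites without VDR ranked best near Gm10029 (chr13:6897041-6897355, scores 23.0 and 21.2), which lay 209 kb from any acetyl region. Zfp648, Npas4, an activity-induced transcription factor of neurons, and Daam1, a formin of Wnt planar polarity signalling, came next. The Npas4 site is in the region of the third-highest score, at chr19:4992295-4995312 and 2.32 kb upstream of the gene, with RXR peaks in all 4 libraries. Further down were Casq1, the calcium store protein of skeletal muscle, Tie1, an endothelial receptor kinase, Ncald, a neuronal calcium sensor, and Cd36, the fatty acid transporter. Ncald is also among the genes with the most unacetylated regions.

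A DR3 element with at most 1 mismatch lay within the central 200 bp of 12 of the 22 VDR sites in unacetylated regions, 54.5% (34.7 to 73.1%). The share was 46.3% of 41 sites in regions acetylated at day 35 alone and 50.1% of 537 in those acetylated at both days. The difference from either class is inside the interval. For RXR sites, VDR-bound ones included, it lay in 10 of 41, 24.4% (13.8 to 39.3%), against 17.0% in regions acetylated at day 35 alone and 10.7% in those acetylated at both days. In the central 200 bp of H3K4me1 regions, with no regard to a factor, it was found in 4.67% of unacetylated and 3.91% of all distal regions.

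Of the motifs searched in the central 300 bp on both strands, the RUNX hexamer TGTGGT differed by the most percentage points between unacetylated and all distal regions. It lay in 1566, 31.9% (30.6 to 33.2%), against 28.8% of those acetylated at day 35 alone, 27.5% at day 3 alone, 25.0% at both days and 26.2% of all. The share was close in regions with and without H3K4me1 at day 3, 32.1% and 31.7%. Within GC classes 31.6% of unacetylated regions under 42% GC and 31.8% of those at 48% GC or more had it, against 23.3% and 24.8% of regions acetylated at both days. Regions acetylated at day 35 alone had 26.3% and 29.9% there, and at 48% GC or more the intervals overlapped (29.4 to 34.4% and 28.3 to 31.6%). The higher share did not hold in every width class. At 1 to 1.5 kb the share was 35.8% against 26.8% of regions acetylated at both days, at 1.5 to 2 kb 28.8% against 28.1%, at 2 to 3 kb 21.5% against 25.7%, and at 3 kb or more 23.4% against 23.2%. Regions acetylated at day 35 alone had 31.6%, 31.6%, 26.0% and 22.4% in these width classes.

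The other motifs differed less from all distal regions when widths were pooled. The AP-1 site TGANTCA, bound by Fos and Jun, lay in 16.0% of unacetylated regions, against 14.6% of all. The TEAD site GGAATG, the target of the Hippo pathway, lay in 18.7%, against 18.3%. C/EBP sites, spelled TTGCNNAA, lay in 15.7%, against 14.5%. The homeobox core TAATTA lay in 10.3%, against 9.28%. GATA sites, spelled AGATAA, lay in 17.1%, against 16.9%. ETS sites, spelled CCGGAAG, lay in 0.958%, against 1.19%. The core of the CTCF motif, AGGGGGC, lay in 2.90%, against 2.99%. The nuclear receptor hexamer AGGTCA lay in 18.9%, against 17.9%. The MEF2 site lay in 5.52% against 5.09%, and the palindrome of nuclear factor I in 0.0408% against 0.0289%. Below 3 kb the AP-1 share was lower in unacetylated regions than in those acetylated at day 35 alone or at both days. At 1 to 1.5 kb it was 19.0% in unacetylated regions, against 23.3% in those acetylated at day 35 alone and 20.1% at both days, at 1.5 to 2 kb 11.9% (9.85 to 14.3%), against 16.5% and 1149 of 6398 regions (17.0 to 18.9%), at 2 to 3 kb 9.54%, against 11.7% and 13.8%, and at 3 kb or more 10.5%, against 10.0% and 10.7%. At 1 to 1.5 kb the AP-1 interval overlapped that of regions acetylated at both days (17.7 to 20.4% and 19.1 to 21.0%). At 2 to 3 kb it overlapped that of regions acetylated at day 35 alone (7.42 to 12.2% and 10.3 to 13.3%). A match of letters is a description of the window and not a bound site.

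Around genes, unacetylated regions were spread thinly. Of 21281 autosomal protein-coding genes, 1612 (7.57%) held at least 1 in the gene body and 48 held 5 or more. Within 50 kb of the body, 4735 genes (22.2%) had at least 1 and 373 (1.75%) had 3 or more. The gene with the most was Pde4d, a cAMP phosphodiesterase (chr13:109240142-110743669), with 10 of its 46 distal H3K4me1 regions unacetylated, 21.7%. H3K4me1 at day 3 lay on 7 of the 10. They lay toward the 5′ end, with 9 of 10 in the first 700 kb, and 1 covered the annotated gene start, which by the rule is no start of a protein-coding transcript. H3K27Ac covered 6.22% of the gene at day 35 and 5.76% at day 3.

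**Figure D4:**
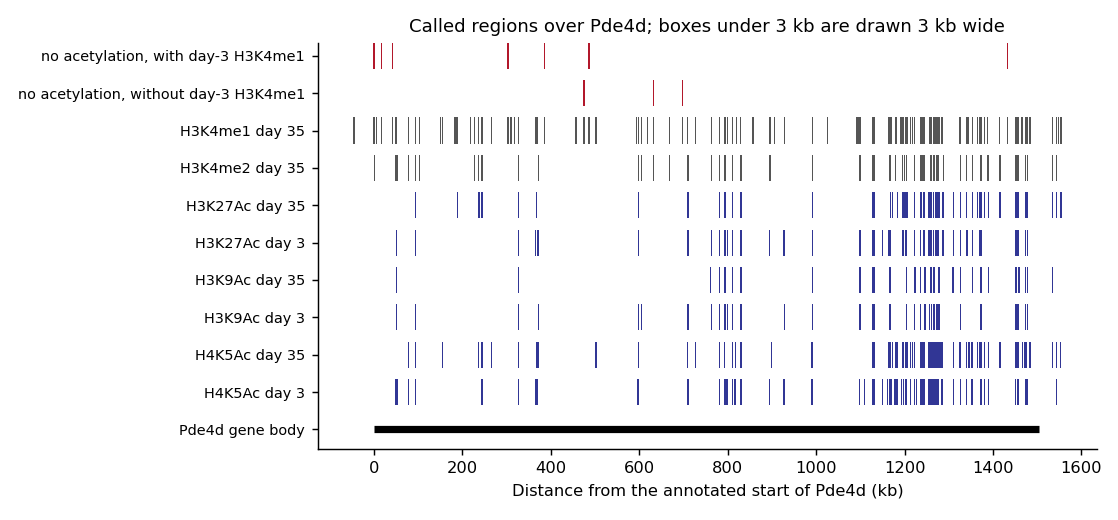
Called regions over Pde4d against distance from its annotated start (kb, x axis), with H3K4me1 regions without acetylation in red (7 with day-3 H3K4me1, 3 without), H3K4me1 and H3K4me2 of day 35 in grey and the acetyl marks of both days in blue; boxes under 3 kb are drawn 3 kb wide. The acetyl regions are densest toward the 3′ end of the gene, and 9 of the 10 red regions lie in its first 700 kb.

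Camta1, a calmodulin-binding transcription activator, had 8 of 16 distal regions unacetylated (50.0%), Ncald 8 of 15 (53.3%), Immp2l, a mitochondrial inner membrane peptidase, 8 of 20 (40.0%) and Zfp423, a zinc finger factor of preadipocytes, 8 of 21 (38.1%). Klhl29 had 7 of 9 (77.8%), and 4 genes shared the count of 7. Immp2l had H3K4me1 at day 3 on 0 of its 8, whereas Zfp423 had it on 6 of 8. Odz4, a teneurin, had 8 of 45 (17.8%) and Rora, an orphan nuclear receptor, 8 of 49 (16.3%), with day-3 H3K4me1 on 6 and 7. H3K36me3 covered 49.1% of Odz4 at day 35 and 57.7% at day 3, and 0 of Ncald and Klhl29 at either day. Fgfr2 and Gm20388 also had 8 and 9, but their annotated models span 3009 and 4435 kb and hold 31 and 72 other genes.

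The lists of genes gave very unequal shares. Within 50 kb of 9 myogenic genes 11 of 37 distal H3K4me1 regions were unacetylated, 29.7%, around 7 endothelial genes 10 of 46, 21.7%, and around 12 neural genes 6 of 29, 20.7%. Over all distal regions the share was 8.34%. Around 13 osteocyte genes it was 1 of 75, 1.33%, around 15 osteoblast genes 4 of 96, 4.17%, and around 17 Wnt pathway genes 4 of 138, 2.90%. Around 12 interferon response genes it was 0 of 49 and around 7 housekeeping genes 0 of 21. These are counts of regions around a few genes each, given with no test.

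**Figure D5:**
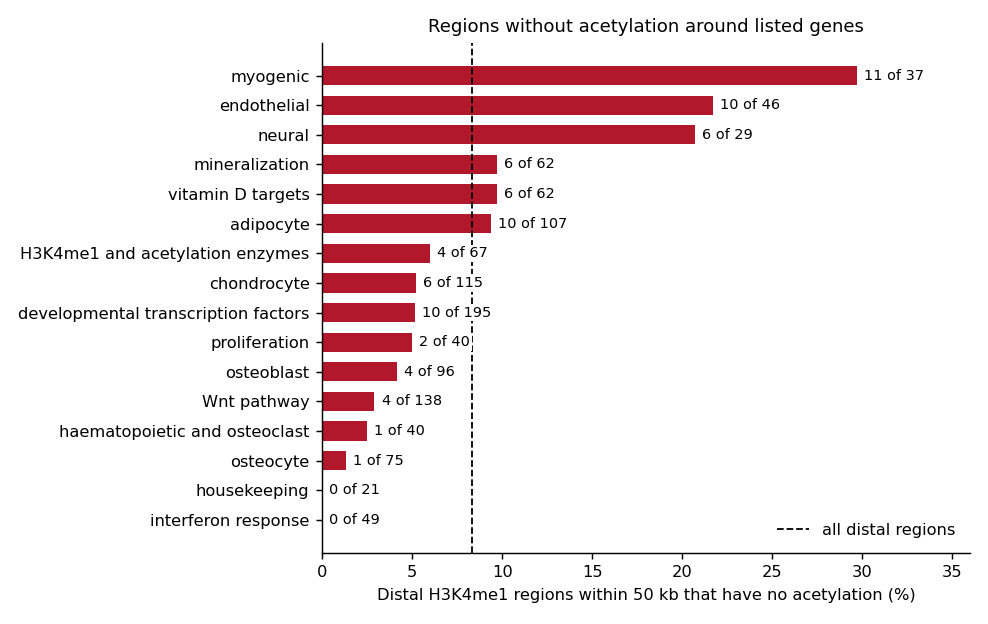
Share of distal H3K4me1 regions within 50 kb of the genes of each list that have no acetylation (%, x axis), with the number of regions beside each bar; the dashed line is the share over all distal regions, 8.34%. Myogenic, endothelial and neural lists lie at 29.7%, 21.7% and 20.7%, and the osteocyte list at 1.33%.

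Among myogenic genes, Pax3 and Pax7, the paired-box factors of muscle precursors, had 6 of 10 and 3 of 3 distal regions unacetylated. H3K27Ac covered 9.07% of Pax3 at day 35 and 2.01% at day 3. It covered none of Pax7 at day 35 and 2.85% at day 3. Des, the muscle intermediate filament, and Myh3, embryonic myosin, had 1 of 5 and 1 of 2. The rest of the list had none: Myog and Mef2c 0 of 6 each, Tnnt1 0 of 4 and Myf5 0 of 1, while Myod1 had no distal region. In the endothelial list, 6 of 7 genes had at least 1, which is 85.7%, against 22.2% of all genes, and the median length of the 7 was 91.1 kb. Flt1, a receptor for vascular endothelial growth factor, had 3 of 11, Cdh5, the endothelial cadherin, 2 of 4, Pecam1 2 of 11, and Kdr, Emcn and Tal1 1 each. Tek had 0 of 4. Neural regions came from Ncam1, the neural cell adhesion molecule, with 5 of 24, and Robo1, an axon guidance receptor, with 1 of 1. Tubb3 and Pax6 had 0 of 2 each, and the other neural genes had no distal H3K4me1 region within 50 kb. Zfp423 gave 9 of the 10 around 11 adipocyte genes, where the share was 9.35% of 107, and Adipoq gave the other.

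Against the 8.34% of all distal regions, the osteoblast and osteocyte lists were lower and the mineralization list was not. Alpl, the phosphatase needed for mineral, had 3 of 7, and H3K27Ac covered 100.0% of the gene at day 35 and 67.1% at day 3. Msx2 had 1 of 5, and Tnfsf11, which encodes the osteoclast factor RANKL, had 1 of 9, the only one of the osteocyte list. The mineralization list had 6 of 62 (9.68%), from Alpl, Enpp1, which makes pyrophosphate, with 2 of 9, and Slc20a1, a phosphate carrier, with 1 of 8. Vitamin D targets also had 6 of 62 (9.68%), from 5 of 9 genes: Enpp3 with 2 of 12, and Cyp24a1, the enzyme that degrades the hormone, Tnfsf11, Lrp5 and Trpv6 with 1 each. Enpp1 and Enpp3 are neighbours and can share regions.

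The list of 18 developmental transcription factors had 10 of 195 distal regions unacetylated, 5.13%, against 8.34% of all, and 4 of the 18 genes had any. Pax9 had 3 of 6, Lmx1b 3 of 6, Nfib 3 of 33 and Meis2 the other. In the chondrocyte list Sox5 had 3 of 45, and Sox6, Sox9 and Col10a1 1 each, 6 of 115 in all (5.22%). Mll3, one of the H3K4me1 methyltransferases itself, had 3 of 15, and the list of chromatin enzymes 4 of 67 (5.97%). The proliferation list had 2 of 40, near Ccnb1 and Pcna, and the haematopoietic and osteoclast list 1 of 40 (2.50%), near Csf1r.

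The strongest unacetylated regions had carried H3K4me1 from day 3. All 10 of the widest and all 10 of the highest score had H3K4me1 at day 3, and 3 regions were in both lists. At 3 kb or more, day-3 H3K4me1 lay on 63.3% of unacetylated regions and 99.5% of those acetylated at both days. Over all distal regions the share was 88.1%. The widest, at chr14:67726976-67736088, is 9113 bp long with a score of 311.6, and lies 35.7 kb upstream of Ppp2r2a, a regulatory subunit of protein phosphatase 2A. It had H3K4me2 at day 35 and lay 6.14 kb from the nearest acetyl region. The highest score, 355.3, was at chr17:5216738-5223790 in an intron of Arid1b, a subunit of the BAF chromatin remodelling complex, with H4K20me1 at both days and no H3K4me2. The third region in both lists, at chr3:16123203-16130310 near Ythdf3, a reader of methylated RNA, had H4K20me1 and H3K36me3 at both days.

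Other wide regions were in introns of Rasa1, a Ras GTPase-activating protein (9056 bp), Jakmip3 (7870 bp), Dner, a neuronal transmembrane protein (7255 bp, with H3K9me3 at both days), and Pde9a, a cGMP phosphodiesterase (6762 bp). Those near Gm5407, Golga7b and Ubtf, a factor of RNA polymerase I, measured 6768, 6767 and 6733 bp. The Gm5407 region lay only 0.0770 kb from an acetyl region, whereas the Jakmip3 region lay 41.6 kb away. Other high-scoring regions were near Npas4 (292.3), Susd1 (284.7), Prdm11 (272.6), Ccdc64 (259.2), Ube2e3, a ubiquitin-conjugating enzyme (251.1), March8, a ubiquitin ligase (246.5), and Ptpn4, a tyrosine phosphatase (230.6). H4K20me1 was called at day 3 on 9 of the 10 highest-scoring regions, all but the one near Ppp2r2a. At 3 kb or more, day-3 H4K20me1 lay on 28.7% of unacetylated regions and 51.6% of those acetylated at both days. Over all distal regions the share was 34.5%.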

How the data were processed

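The authors deposited, for each of 26 of the 28 samples, a list of called regions with position and a peak score, and the score's scale is not stated. No list was used for the 2 inputs. The submitters' processing notes name Bowtie, HOMER and mm9. Versions, parameters, filters and depth are unknown here, and replicates were listed separately.

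Chromosome lengths matched the NCBIM37 assembly, with 0 regions beyond an end, and genes came from GENCODE M1 of that build. Older symbols were matched through a RefSeq gene table, and 170 of 177 listed names were found on autosomes. Positions are 1-based. Overlap means at least 1 shared base. Intervals are 95% Wilson intervals. A consensus site overlaps between both replicates. Permutation tests were exact over libraries. Interval functions were tested on simulated data, with Python 3.11.15, numpy 2.4.6, pandas 2.3.3 and pysam 0.24.0.

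The rule for the regions used H3K4me1 at day 35 and the acetyl lists, so width, score and acetyl distance are descriptions. Regions, gene lists and motifs were chosen with earlier results of these data known. Named genes were the 10 with the most regions in the body, those nearest the 10 widest and 10 highest-scoring regions and the best-ranked factor sites, and listed genes with 3 or more regions within 50 kb. Sequences from chromosome 18 were left out. Genes named outside this rule were chosen after their values were seen, as were the width and GC classes for motifs.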

Additional observations from a re-analysis of the deposited data

How the results depend on the processing

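The number of unacetylated regions and the shares of marks on them follow how the lists are read, and the direction against vehicle was kept in every alternative run for VDR and RXR. With the higher-scoring 50% of each acetyl list there were 22102 regions, with day-3 H3K4me1 on 75.0% and day-35 H3K4me2 on 38.0%. At widths of at least 2 kb there were 988, with 62.4% and 20.3%, and at any width 17084, with 40.3% and 13.1%. In the higher-scoring 50% of the H3K4me1 list there were 428, with 77.1% and 43.7%. With acetylation read at day 35 alone the shares were 66.4% and 25.1%. Where the mark had to cover the region's centre they were 45.9% and 17.8%, where it had to cover at least 50% of the region 40.3% and 10.6%, and with the higher-scoring 50% of the mark's own list 7.18% and 1.63%. The cause was not tested, beyond what each setting removes or adds by construction. Leaving out regions with an acetyl region within 1 kb gave 4788 regions with 55.4% and 23.1%, and a TSS distance over 10 kb gave 4172 with 54.3% and 23.3%. Merging H3K4me1 regions closer than 1 kb was not run, because the smallest gap in that list is 2000 bp and there was nothing to merge.

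For hormone against vehicle the difference in mean log2(count + 1) with 1 replicate left out ran from 0.68 to 1.53 for RXR and from 4.52 to 4.64 for VDR, with no test. With the replicate block the exact permutation p was 0.500 for both factors, the smallest that pairing allows, with differences of 1.10 and 4.58. The labels give the replicate numbers no shared batch, and with only 2 numbers per factor they were not taken as pairs. Site-score deviations of equal numbers did correlate positively, at 0.31 over 281 VDR sites and 0.18 over 3434 RXR sites. An effect shared by libraries of equal number was not tested. In the higher-scoring 50% of each list the differences were 1.40 for RXR and 3.51 for VDR, and with lists of equal length 0.40 and 1.00. Of 160 alternatives run for the other results 99 moved. Those results are counts and shares with no direction, so a reversal was not possible for them. As depth is unknown, an uncalled mark cannot be told from one below the calling threshold.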
